A study of Mus musculus with 8 samples.

Results

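The alpha- and beta-tubulin genes of a mouse basal cell carcinoma line were followed across 4 groups of RNA-seq libraries. The 10 genes were taken by their symbols: the alpha genes Tuba1a, Tuba1b, Tuba1c and Tuba4a, and the beta genes Tubb2a, Tubb2b, Tubb3, Tubb4b, Tubb5 and Tubb6. They were 10 of the 24883 gene symbols used from the deposited file, and all 10 were among the 12879 genes that passed the filter on low counts.

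The cells were ASZ001, here called ASZ, 1 established line from mouse skin tumours that grow under Hedgehog signalling. A vector switched on by doxycycline was either empty or made c-FOS, part of the transcription factor AP-1, and doxycycline was given for 24 h in all 4 groups. The c-FOS cells were then kept for 6 h with DMSO, with afatinib at 5 µM, an inhibitor of the EGFR family of receptor kinases, or with UO126 at 10 µM, an inhibitor of the MEK kinases downstream of those receptors. The label of the empty-vector group names no vehicle, so an effect of DMSO would be part of any comparison with it. Each group had 2 libraries, which the labels do not describe as separate cultures, so p-values measure only how far these libraries spread, and that spread may be technical.

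Microtubules are hollow filaments built from dimers of 1 alpha- and 1 beta-tubulin. They form the mitotic spindle, carry vesicles and organelles, and help a cell keep or change its shape. Mammals have several genes for each kind of tubulin, and their proteins, called isotypes, differ mostly in the acidic tail at the end of the chain. Most isotypes are made in many tissues, while Tubb3 is best known from neurons, and is also found in many carcinomas. New tubulin chains are folded by the prefoldin and CCT chaperones before they can pair. Cells also hold their tubulin mRNA to the amount of free dimer, by degrading tubulin mRNAs while they are being translated.

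The libraries held between 17901973.5 and 23126048.5 counts. Levels are given in CPM, the usual unit of counts scaled to library size, here corrected for composition, and as CPM per kilobase of the length in the deposited file where genes are compared with each other. The share of all counts taken by the 10 genes ranged from 0.220% to 0.394%. Fos, the gene on the vector, had 937.5 and 1040.5 counts with the empty vector and between 18209 and 23573.5 in the c-FOS libraries, and it was lower with UO126 than with DMSO (log2 fold change -0.44 ± 0.080, SE, edgeR adjusted p = 0.0015). All 10 basal keratinocyte markers passed the filter, with a summed level between 21530.4 and 26020.4 CPM. The lowest sums were those of both afatinib libraries, 21530.4 and 21699 CPM. Of the fibroblast and leukocyte markers Lum, Thy1 and Tyrobp had no count in any library, and the lists summed to between 5.06 and 10.6 CPM and between 5.41 and 9.32 CPM, with the empty-vector libraries lowest in both. The highest counts among them were those of Col1a2 (15.5 to 159.5), Cd68 (86 to 137) and Csf1r (3 to 83.5). With c-FOS and DMSO against the empty vector, 1 of the 2 leukocyte markers tested was higher at an edgeR adjusted p under 0.05. The median log2 fold change of these 2, Cd68 and Csf1r, was 1.49, which for 2 genes is their mean. The whole leukocyte list summed to 5.41 and 6.08 CPM in the empty-vector libraries and to 6.11 and 6.75 under DMSO. Of all genes tested, 21.5% were called as higher and 20.7% as lower there. Of the 4 fibroblast markers tested, 1 was higher and 1 lower, with a median of 0.04. The part of these shifts in the results below was not tested. In such bulk libraries, fewer cells of a type and less RNA per cell cannot be told apart.

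The sequences of these genes set how well their counts can be separated, so stretches of them are shown first. They come from the GENCODE transcripts of build GRCm38, which is not the mm9 build named for the counts, and all 10 genes were found there. Each kind of tubulin gene opens with its own coding start, the stretch that the degradation machinery reads on the growing chain. The first 12 coding bases are printed here with codon 4 in capitals, where alpha and beta genes part.
Tuba1b: atgcgtgagTGC
Tuba4a: atgcgcgagTGC
Tubb2a: atgcgcgagATC
Tubb3: atgagggagATC
Tubb5: atgagggaaATC
The alpha genes shown share TGC at that codon and the beta genes shown share ATC.

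Tuba1a, Tuba1b and Tuba1c lie on chromosome 15 and are close copies of each other. Their coding sequences were identical at 98.3% of aligned positions for Tuba1a and Tuba1b, 97.1% for Tuba1a and Tuba1c and 97.9% for Tuba1b and Tuba1c. Tubb2a and Tubb2b on chromosome 13 were identical at 96.5%. For this pair, the last 45 coding bases before the stop codon show how little separates a read of one copy from a read of the other, with capitals at the bases of Tubb2b that differ from Tubb2a.
Tubb2a: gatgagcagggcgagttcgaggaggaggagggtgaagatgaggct
Tubb2b: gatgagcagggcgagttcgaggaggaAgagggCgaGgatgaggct
Here Tubb2b differs from Tubb2a at 3 bases. Over the whole coding sequence Tuba1b differs from Tuba1a at 23 positions and Tubb2b from Tubb2a at 47.

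Windows of 50 bases give a measure of the shared stretches, though the sources used here do not state the read length. Of the windows along each transcript, 52.0% in Tuba1a, 64.6% in Tuba1b and 59.8% in Tuba1c were also in another of the 10 genes, as were 45.6% in Tubb2a and 33.4% in Tubb2b. Tubb5 shared 1 window, and Tuba4a, Tubb3, Tubb4b and Tubb6 shared none. The values of Tuba1a, Tuba1b, Tuba1c, Tubb2a and Tubb2b one by one are therefore uncertain, and their sums are given beside the results. The libraries do not mark strand, and GENCODE places exons of Stk16 across Tuba4a and exons of Fam166a across Tubb4b on the opposite strand. It also places the antisense gene Gm41396 across Tuba1b, and the coding gene Gm49450 on the same strand across both Tuba1a and Tuba1b, and neither is analysed here. Stk16 averaged 65.1 CPM in the empty-vector group, then 69.4 (DMSO), 54.9 (afatinib) and 60.9 (UO126). Fam166a averaged 27.7, 31.8, 19.6 and 26.7 CPM in the same order. Both were, like Tuba4a and Tubb4b, highest under DMSO and lowest under afatinib, and how many reads the pairs share was not tested.

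Among the alpha genes, Tuba1b was the highest per length in each of the 4 group means, from 113 CPM per kilobase with afatinib to 197 with DMSO. It lay below Tuba1a, however, in afatinib replicate 2 (110.2 against 110.4) and in UO126 replicate 1 (160.5 against 166.8). It encodes one of the most widely made alpha-tubulins. It had 5491.5 and 5357.5 counts in the empty-vector libraries, 5723 and 5287.5 under DMSO, 3717.5 and 3742.5 under afatinib and 5592.5 and 5798 under UO126. Scaled to depth, these were 249 ± 15.8, 306 ± 7.78, 176 ± 6.73 and 259 ± 12.5 CPM (SD, n = 2 libraries, as for every mean below). Both DMSO libraries lay above the other 6 and both afatinib libraries below them, while the empty-vector and UO126 libraries overlapped. Tuba1a, an alpha gene known for its role in the developing brain, had 4729.5 and 4520.5 counts in the empty-vector libraries, 4117 and 4202 under DMSO, 3623.5 and 3816.5 under afatinib and 5921 and 5431 under UO126. The group means were 212 ± 10.4, 231 ± 10.4, 176 ± 1.09 and 257 ± 9.82 CPM. No groups overlapped, and unlike Tuba1b it was highest with UO126. How many of all genes tested had groups apart in this way was not counted. Such statements, here and below, therefore only describe the values of each gene.

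Tuba1c, the third of the close copies, had 2243.5 and 2193.5 counts in the empty-vector libraries, 2868 and 2897.5 under DMSO, 2267 and 2197 under afatinib and 2667 and 2589 under UO126. This gave 102 ± 6.64, 160.4 ± 6.06, 106 ± 6.84 and 119 ± 0.232 CPM. The empty-vector and afatinib libraries overlapped, and both DMSO libraries were the highest. Tuba4a, an alpha gene whose transcript shared no window with the others, had 5006 and 4491 counts in the empty-vector libraries, 5611 and 5360 under DMSO, 3875.5 and 3742 under afatinib and 5464.5 and 5445.5 under UO126. The means of 217 ± 0.959, 305 ± 0.581, 180.1 ± 12.2 and 248 ± 5.10 CPM did not overlap between any groups, in the order afatinib, empty vector, UO126, DMSO.

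Among the beta genes, Tubb5 was the highest per length in each of the 4 group means, from 333 CPM per kilobase with afatinib to 708 with DMSO. It is the main beta-tubulin of most dividing cells. It had 36324 and 33958.5 counts in the empty-vector libraries, 33472.5 and 33745.5 under DMSO, 18714 and 18489.5 under afatinib and 30562 and 31011 under UO126. The means were 1611 ± 54.0, 1869.6 ± 67.7, 879 ± 45.03 and 1398 ± 46.5 CPM, with no overlap between groups. Both afatinib libraries were far below the other 6. Tubb4b, the second highest beta gene per length in each group mean and a widely made isotype, had 9652.5 and 9081 counts in the empty-vector libraries, 8427 and 8358.5 under DMSO, 6311 and 6624 under afatinib and 9140 and 9467 under UO126. Its means were 429 ± 16.3, 467 ± 11.5, 305 ± 2.59 and 422 ± 20.2 CPM. The empty-vector and UO126 libraries overlapped, and the afatinib libraries were again the lowest.

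Tubb3 was the member that varied most over the libraries. It had 491.5 and 453 counts in the empty-vector libraries, 3752 and 3701 under DMSO, 3222 and 3071 under afatinib and 5892 and 6234 under UO126. The means were 21.6 ± 0.493, 207 ± 4.31, 149 ± 11.4 and 275 ± 17.3 CPM, with no overlap between groups. Every c-FOS library lay above both empty-vector libraries, and both UO126 libraries were the highest of the 8. Markers of neurons, the cells Tubb3 is best known from, were mostly at or near 0: Snap25 and Nefl had no count in any library, 9 of the 12 listed markers stayed under 10 counts in every library, and Stmn2 and Syp reached at most 10 and 12.5. Map2, which is also a general microtubule-associated protein, had between 2387 and 4049 counts and made up nearly all of the list's summed level of 117 to 182 CPM. That sum ranged from 117 to 122 CPM in the empty-vector libraries, and was 145 to 153 (DMSO), 157 to 177 (afatinib) and 139 to 182 (UO126) in the c-FOS libraries.

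Tubb2a and Tubb2b, close copies that are both prominent in the nervous system, followed the same order of groups as Tubb3. Tubb2a had 1239.5 and 1173 counts in the empty-vector libraries, 2664 and 2600.5 under DMSO, 2700.5 and 2659 under afatinib and 3460 and 3305.5 under UO126, or 55.3 ± 2.32, 146 ± 1.94, 127 ± 6.78 and 153 ± 1.42 CPM. Tubb2b was the lowest member per length in each group mean, with 293 and 289 counts in the empty-vector libraries, 644.5 and 599 under DMSO, 619 and 614.5 under afatinib and 1148 and 1070 under UO126. Its means were 13.4 ± 0.954, 34.5 ± 0.717, 29.1 ± 1.41 and 50.3 ± 1.35 CPM. Neither gene overlapped between any groups. Tubb6, an isotype found in many tissues, had 2306.5 and 2188.5 counts in the empty-vector libraries, 3918 and 3829 under DMSO, 2782.5 and 2819 under afatinib and 3845.5 and 4042.5 under UO126. The means of 103 ± 4.54, 215 ± 3.06, 132 ± 4.42 and 179 ± 10.4 CPM did not overlap, and the highest were those of the DMSO libraries.

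**Figure D1:**
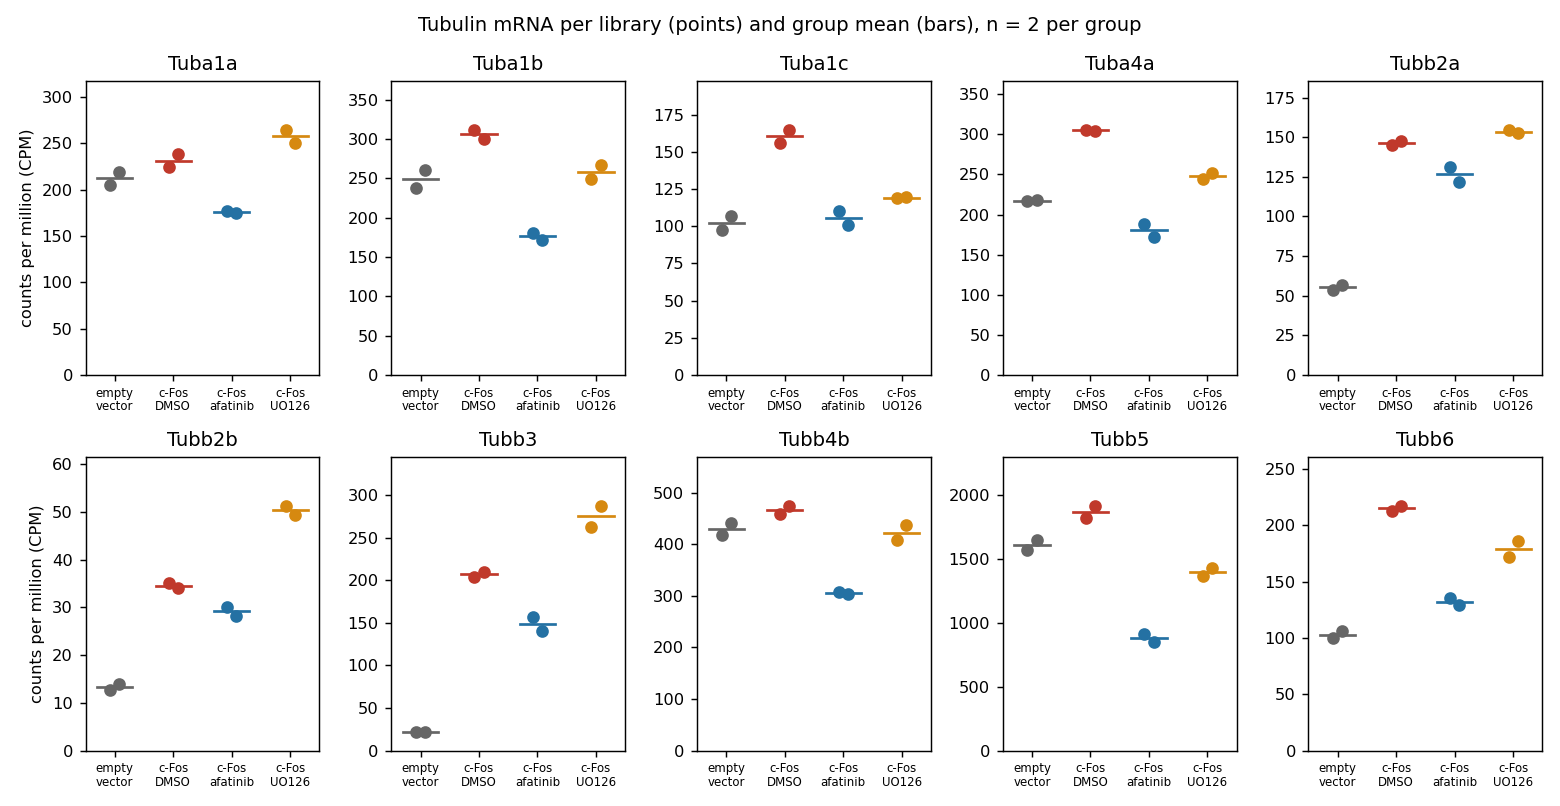
Level of each of the 10 tubulin genes, in CPM on an axis that starts at 0, in every library (points) of the 4 groups, with the mean of the 2 libraries as a bar. Tubb3, Tubb2a, Tubb2b and Tubb6 are lowest in the empty-vector libraries, while Tubb5, Tubb4b, Tuba1a, Tuba1b and Tuba4a are lowest in the afatinib libraries.

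With c-FOS and DMSO, compared with the empty vector, 8 of the 10 tubulin genes rose and none fell. This comparison asks what induced c-FOS does to the cells. A gene was called where its adjusted p in edgeR's quasi-likelihood test was under 0.05, and 42.2% of all genes tested were called in either direction, 21.5% as higher and 20.7% as lower. The median log2 fold change of the 10 members was 0.57, beside -0.01 for all genes tested. Those that rose were 3 of the 4 alpha genes and 5 of the 6 beta genes.

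Tubb3 had by far the widest difference of the members, 9.58-fold (log2 fold change 3.26 ± 0.081, SE, edgeR adjusted p = 4.4e-12). The neuronal copies came next: Tubb2a rose 2.65-fold (1.40 ± 0.067, edgeR adjusted p = 2.5e-09) and Tubb2b 2.59-fold (1.37 ± 0.088, 4.5e-08). Tubb6 rose 2.09-fold (1.06 ± 0.067, 3.5e-08). The alpha genes rose by less: Tuba1c 1.58-fold, Tuba4a 1.40-fold and Tuba1b 1.23-fold, with edgeR adjusted p of 7.0e-06, 3.3e-05 and 0.0028. Tubb5 was 1.16-fold higher (0.22 ± 0.061, edgeR adjusted p = 0.012), a call that was lost when either empty-vector replicate 1 (0.076) or DMSO replicate 2 (0.11) was left out. Tuba1a and Tubb4b did not pass, with log2 fold changes of 0.13 ± 0.064 and 0.12 ± 0.060 and edgeR adjusted p of 0.13 and 0.12, and both were called when UO126 replicate 2 was left out (0.040 and 0.034). Summed, Tuba1a, Tuba1b and Tuba1c rose by 0.31 ± 0.060 on the log2 scale (edgeR adjusted p = 0.0010) and Tubb2a with Tubb2b by 1.40 ± 0.066 (2.4e-09).

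**Figure D2:**
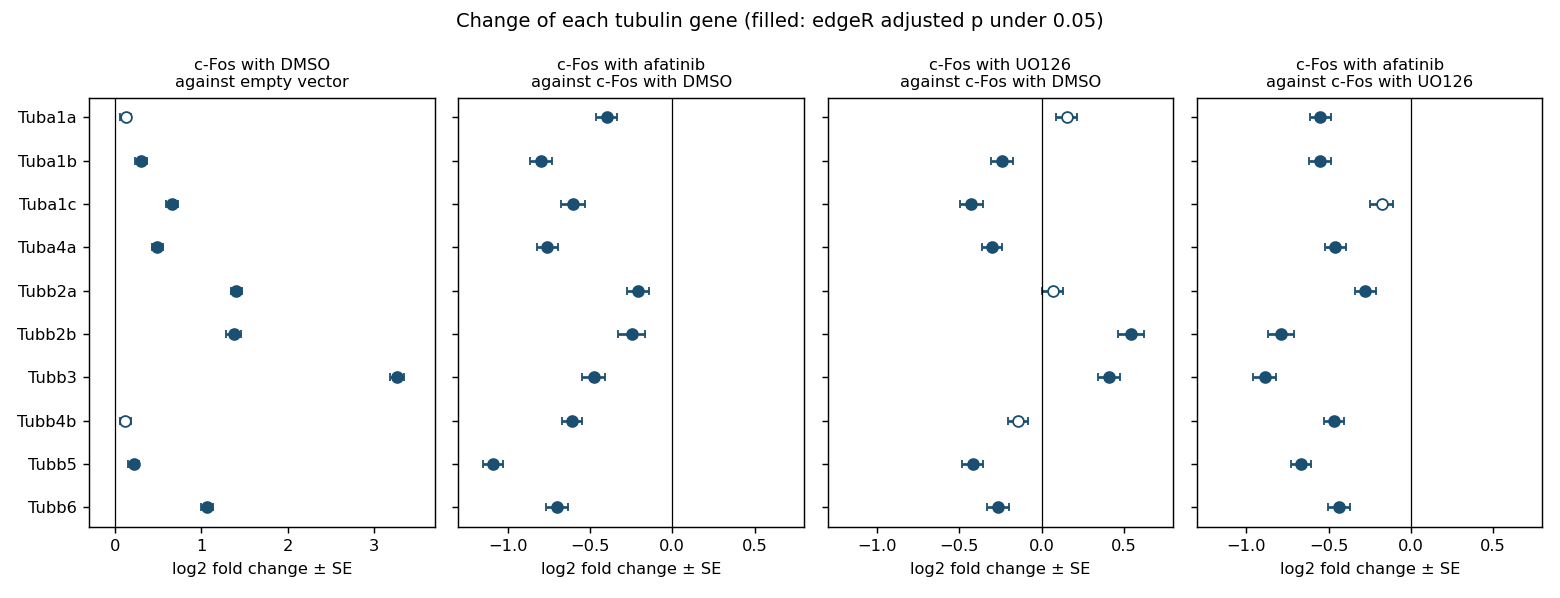
Log2 fold change (points) with its standard error (bars) of each tubulin gene in 4 comparisons, filled where the edgeR adjusted p was under 0.05; the first panel has a wider scale than the others. All 10 points lie below 0 for afatinib against DMSO. For UO126 against DMSO the filled points of Tubb2b and Tubb3 lie above 0 and 5 filled points lie below it. The open points there are Tuba1a and Tubb2a, above 0, and Tubb4b, below it.

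With afatinib, compared with DMSO in c-FOS cells, all 10 tubulin genes fell. Of all genes tested, 42.7% were called in either direction, 21.2% as higher and 21.5% as lower. This comparison asks what 6 h of blocking the EGFR family does once c-FOS is made, and it shares its DMSO libraries with the comparison above, so their values are not independent. The members' median log2 fold change was -0.61, beside -0.00 for all genes.

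Tubb5 had the lowest fold change, with 2.13-fold less mRNA in the afatinib libraries (-1.09 ± 0.062, edgeR adjusted p = 2.5e-08). Tuba1b was 1.74-fold lower (-0.80 ± 0.067, 8.7e-07), Tuba4a 1.69-fold (-0.76 ± 0.063, 7.3e-07) and Tubb6 1.63-fold (-0.70 ± 0.066, 2.4e-06). Tubb4b and Tuba1c were lower by 0.61 ± 0.060 and 0.60 ± 0.071 on the log2 scale. Tubb3 and Tuba1a were 1.39-fold and 1.32-fold lower, with edgeR adjusted p of 1.2e-04 and 2.4e-04. The calls of the Tubb2 copies were fragile. Tubb2a was 1.16-fold lower (-0.21 ± 0.065, edgeR adjusted p = 0.019), and the call ended without empty-vector replicate 2 (0.051), DMSO replicate 1 (0.063), DMSO replicate 2 (0.16) or afatinib replicate 2 (0.25). Tubb2b was 1.19-fold lower (-0.25 ± 0.082, edgeR adjusted p = 0.027). Its adjusted p was 0.095 in the DESeq2 Wald test, and 0.052 without empty-vector replicate 2, 0.13 and 0.11 without DMSO replicates 1 and 2, and 0.063 and 0.23 without afatinib replicates 1 and 2. Summed, the 3 Tuba1 copies stood at -0.61 ± 0.060 on the log2 scale (edgeR adjusted p = 3.7e-06) and both Tubb2 copies at -0.22 ± 0.064 (0.015), and both sums were called.

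With UO126, compared with the same DMSO libraries, the members split: 2 rose, 5 fell and 3 did not pass. Of all genes tested, 28.6% were called in either direction, 13.9% as higher and 14.7% as lower. This comparison asks what blocking MEK, downstream of the receptors, does in the c-FOS cells. The members' median log2 fold change was -0.19, beside 0.00 for all genes.

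The 2 that rose are beta genes. Tubb2b was 1.46-fold higher (0.54 ± 0.079, edgeR adjusted p = 2.3e-04) and Tubb3 1.33-fold higher (0.41 ± 0.070, 7.2e-04). Those that fell were Tuba1c (-0.43 ± 0.070, edgeR adjusted p = 5.8e-04), Tubb5 (-0.42 ± 0.061, 2.4e-04), Tuba4a (-0.30 ± 0.062, 0.0028), Tubb6 (-0.27 ± 0.065, 0.0080) and Tuba1b (-0.24 ± 0.066, 0.015). Without DMSO replicate 2 the number lower was 3 in place of 5, since Tubb6 (0.085) and Tuba1b (0.067) were lost. Tuba1b was also lost without DMSO replicate 1 (0.10) or UO126 replicate 1 (0.066). Tuba1a, Tubb4b and Tubb2a had log2 fold changes of 0.15 ± 0.064, -0.14 ± 0.060 and 0.07 ± 0.064, with edgeR adjusted p of 0.088, 0.090 and 0.46. Tuba1a and Tubb4b were called without UO126 replicate 2, at 0.040 and 0.038. Summed, neither the Tuba1 copies (-0.14 ± 0.060, edgeR adjusted p = 0.11) nor the Tubb2 copies (0.17 ± 0.064, 0.059) passed.

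Set directly against each other, afatinib left 9 of the 10 tubulin genes lower than UO126 did, and none higher. Of all genes tested, 14.3% were called between the inhibitors and 7.14% as lower with afatinib. The members' median log2 fold change was -0.51, beside -0.00 for all genes. Tubb3 was 1.85-fold lower with afatinib (-0.89 ± 0.070, edgeR adjusted p = 5.0e-06), Tubb2b 1.73-fold (-0.79 ± 0.079, 3.3e-05) and Tubb5 1.59-fold (-0.67 ± 0.062, 1.6e-05). Tuba1b and Tuba1a were both 1.47-fold lower, Tubb4b 1.38-fold, Tuba4a 1.37-fold and Tubb6 1.35-fold. Tubb2a was 1.21-fold lower (-0.28 ± 0.064, edgeR adjusted p = 0.012), and was not called without afatinib replicate 2 (0.15) or in a fit of these 4 libraries alone (0.050). Tuba1c was the member that did not pass (-0.18 ± 0.071, edgeR adjusted p = 0.12). The inhibitors were used at different doses, 5 and 10 µM, so these values stand side by side and do not rank the drugs. Summed, the Tuba1 copies stood at -0.47 ± 0.060 on the log2 scale (edgeR adjusted p = 2.5e-04) and the Tubb2 copies at -0.39 ± 0.064 (0.0015).

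Against the empty vector, the afatinib libraries held 4 beta genes at a higher level and 5 members at a lower one. Of all genes tested, 45.1% were called here in either direction, 21.7% as higher and 23.4% as lower. The higher ones were Tubb3 at 6.88-fold (2.78 ± 0.080, edgeR adjusted p = 2.0e-11), Tubb2a at 2.29-fold (9.5e-09), Tubb2b at 2.18-fold (2.5e-07) and Tubb6 at 1.28-fold (6.1e-04). Tubb5 was 1.83-fold lower than with the empty vector (-0.87 ± 0.062, edgeR adjusted p = 9.4e-08), Tuba1b 1.41-fold and Tubb4b 1.41-fold. Tuba1a and Tuba4a were each 1.21-fold lower. The call of Tuba1a ended without empty-vector replicate 2 (edgeR adjusted p = 0.086) and that of Tuba4a without afatinib replicate 2 (0.087). Tuba1c stood at 0.05 ± 0.071 on the log2 scale (edgeR adjusted p = 0.58). The members' median was -0.11, beside -0.03 for all genes, since the 4 higher beta genes and the 5 lower members lay on either side.

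Against the same empty-vector libraries, UO126 left 7 members higher and 1 lower, where 37.7% of all genes were called, 18.3% as higher and 19.4% as lower. Tubb3 was 12.7-fold higher (3.67 ± 0.081, edgeR adjusted p = 2.5e-12), Tubb2b 3.77-fold (1.91 ± 0.085, 1.4e-09), Tubb2a 2.78-fold (1.47 ± 0.067, 1.7e-09) and Tubb6 1.74-fold (0.80 ± 0.066, 5.6e-07). Tuba1a was 1.21-fold higher (edgeR adjusted p = 0.0034). Tuba1c was 1.17-fold higher (edgeR adjusted p = 0.021), a call that ended without empty-vector replicate 1 (0.13). Tuba4a was 1.14-fold higher (edgeR adjusted p = 0.029), and was not called without empty-vector replicate 1 (0.083) or 2 (0.100). Tubb5, the 1 lower member, was 1.15-fold lower (-0.20 ± 0.061, edgeR adjusted p = 0.018). It was not called without empty-vector replicate 1 (0.073), empty-vector replicate 2 (0.18) or UO126 replicate 1 (0.086), nor in a fit of the 4 libraries alone (0.055). Tuba1b and Tubb4b had log2 fold changes of 0.05 ± 0.066 and -0.02 ± 0.060, with edgeR adjusted p of 0.55 and 0.79, and the sign of Tubb4b changed without empty-vector replicate 2, DMSO replicate 1 or UO126 replicate 1. The members' median was 0.25, beside -0.02 for all genes. Summed, the Tuba1 copies stood at -0.30 ± 0.060 with afatinib and 0.17 ± 0.060 with UO126 against the empty vector (edgeR adjusted p = 0.0012 and 0.034), and the Tubb2 copies at 1.18 ± 0.066 and 1.57 ± 0.066 (9.5e-09 and 8.8e-10).

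These differences changed the mixture of tubulin mRNAs as well as their amount. Added up per length, the 4 alpha genes stood at 439 ± 20.5 CPM per kilobase in the empty-vector group, 555 ± 4.38 under DMSO, 355 ± 13.7 under afatinib and 496 ± 4.18 under UO126. The 6 beta genes stood at 993 ± 35.6, 1355 ± 38.0, 782 ± 32.8 and 1180 ± 44.7 CPM per kilobase. Both sums followed the same order of groups, without overlap. The beta sum was 2.28 and 2.25 times the alpha sum in the empty-vector libraries, 2.41 and 2.48 times under DMSO, 2.21 and 2.20 times under afatinib and 2.33 and 2.43 times under UO126. The ratio thus ranged from 2.20 to 2.48 while each sum moved, and no test was run on these sums.

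Within the beta genes the shares shifted. Tubb5 made up 61.5% ± 0.139 of the beta sum per length in the empty-vector group, 52.3% ± 0.428 under DMSO, 42.6% ± 0.393 under afatinib and 44.9% ± 0.209 under UO126. Tubb3 made up 1.27% ± 0.0166, 8.91% ± 0.0645, 11.1% ± 0.384 and 13.6% ± 0.339 in the same order. So the share of Tubb3 was higher with afatinib than with DMSO although its level was lower. Tubb2a moved from 3.48% ± 0.0212 in the empty-vector group to 6.75% ± 0.0996 under DMSO, 10.1% ± 0.117 under afatinib and 8.13% ± 0.383 under UO126. Tubb6 moved from 5.97% ± 0.0490 to 9.15% ± 0.126, 9.74% ± 0.0841 and 8.73% ± 0.176. Tubb4b took 27.1% ± 0.0607, 21.6% ± 0.0730, 24.5% ± 0.822 and 22.5% ± 0.222. Among the alpha genes, Tuba1b lay between 31.9% and 36.4% of the alpha sum and Tuba1a between 26.3% and 32.8%, in the group means.

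**Figure D3:**
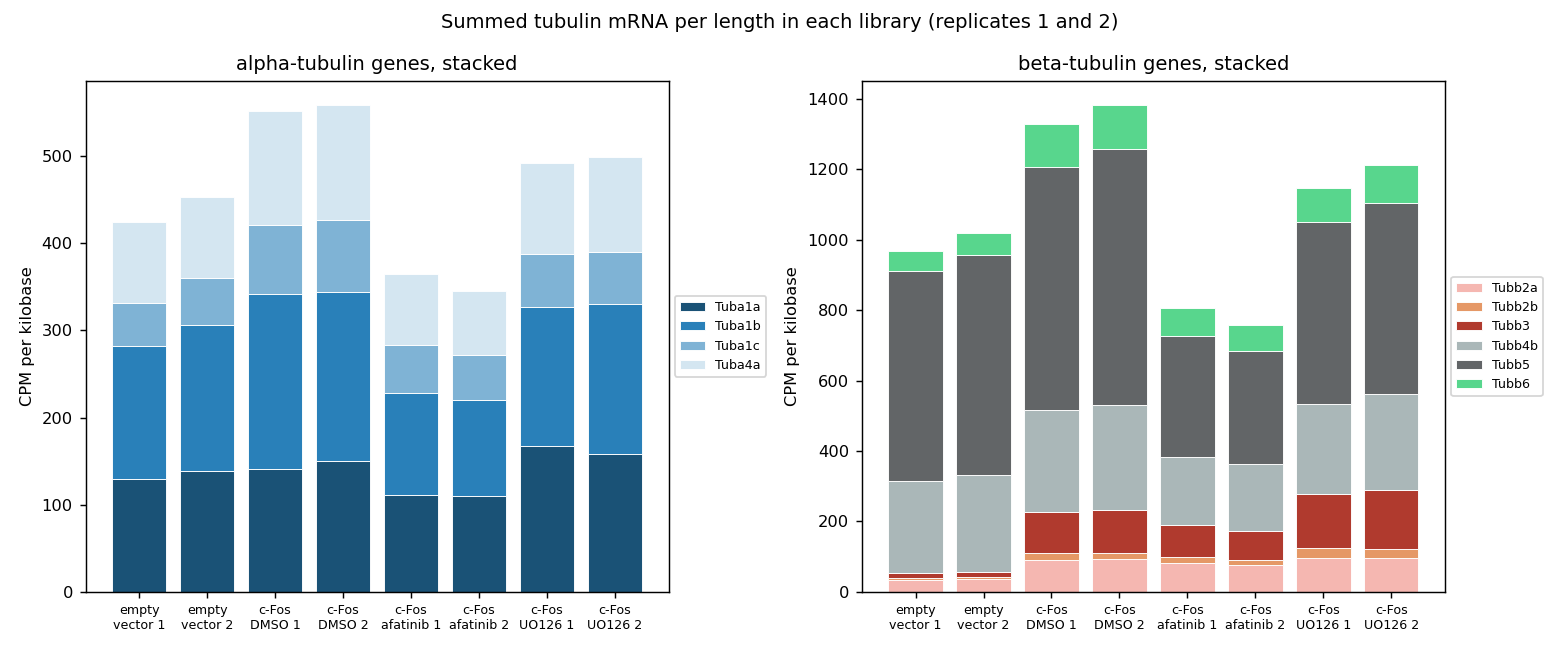
Stacked bars of the level per length (CPM per kilobase, axes from 0) of the 4 alpha genes and the 6 beta genes in each of the 8 libraries. In the beta panel Tubb3 is a thin band in both empty-vector libraries. In the c-FOS libraries it takes from 8.86% (DMSO replicate 2) to 13.8% (UO126 replicate 2) of the bar. Tubb5 takes less of the bar in every c-FOS group than with the empty vector.

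The beta genes differ in the end of their coding sequence, where the acidic tail is encoded. The last 45 coding bases of Tubb5 and Tubb3, whose shares moved most, and of Tubb4b, the second highest beta gene, are printed with the codons gaa and gag, which encode glutamate, in capitals.
Tubb5: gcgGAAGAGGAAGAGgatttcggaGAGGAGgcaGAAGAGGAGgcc
Tubb4b: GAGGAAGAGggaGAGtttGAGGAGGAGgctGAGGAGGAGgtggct
Tubb3: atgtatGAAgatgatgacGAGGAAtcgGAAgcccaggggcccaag
Of these 15 codons, 9 are glutamate codons in Tubb5, 10 in Tubb4b and 4 in Tubb3. The coding sequence of Tubb3 is longer, 1353 bases against 1335 in Tubb5 and 1338 in Tubb4b. A fixed stretch of 45 bases can therefore begin at another point of the tail in Tubb3, and these counts do not compare whole tails. In the protein, glutamates of the acidic tail are where enzymes add chains of further glutamates. The coding sequences of Tubb3 and Tubb5 were identical at 81.2% of aligned positions, far enough apart that no window of 50 bases was shared between them.

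The genes that fold new tubulin moved in the same directions as most tubulin genes under c-FOS and under afatinib. Prefoldin hands unfolded chains to CCT, a ring of related subunits in which actin and tubulin fold, and all 14 listed genes of both complexes passed the filter. The list was chosen with earlier results of these data known. With c-FOS and DMSO, 11 of the 14 rose against the empty vector and none fell, where 21.5% of all genes rose. The median log2 fold change was 0.29, beside -0.01 for all genes. Cct5 rose the most in this list, from 539 ± 8.57 to 746 ± 38.9 CPM (0.47 ± 0.059, edgeR adjusted p = 3.0e-05), followed by Tcp1 (0.41 ± 0.062, 1.4e-04) and Cct6a (0.40 ± 0.069, 4.5e-04), all subunits of the CCT ring.

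With afatinib, 12 of the 14 fell against DMSO and none rose, where 21.5% of all genes fell, with a median of -0.34 beside -0.00. The prefoldin subunit Pfdn2 went from 80.7 ± 0.807 to 54.3 ± 1.08 CPM (-0.57 ± 0.069, edgeR adjusted p = 1.9e-05), Cct3 changed by -0.47 ± 0.062 and Cct2 by -0.46 ± 0.061. With UO126, 9 of the 14 fell against DMSO and none rose, where 14.7% of all genes fell, with a median of -0.19 beside 0.00. Pfdn2 again had the lowest fold change (-0.42 ± 0.068, edgeR adjusted p = 5.2e-04), beside Pfdn6 and Cct8 at -0.26 each. These 3 comparisons share the DMSO libraries. Away from them, 3 of the 14 were lower with afatinib than with the empty vector (Cct3, Pfdn2 and Cct2), where 23.4% of all genes were lower, so this count is near that of genes at large. With UO126 4 of the 14 were higher than with the empty vector, where 18.3% of all genes were, and 4 were lower with afatinib than with UO126, where 7.14% of all genes were.

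**Figure D4:**
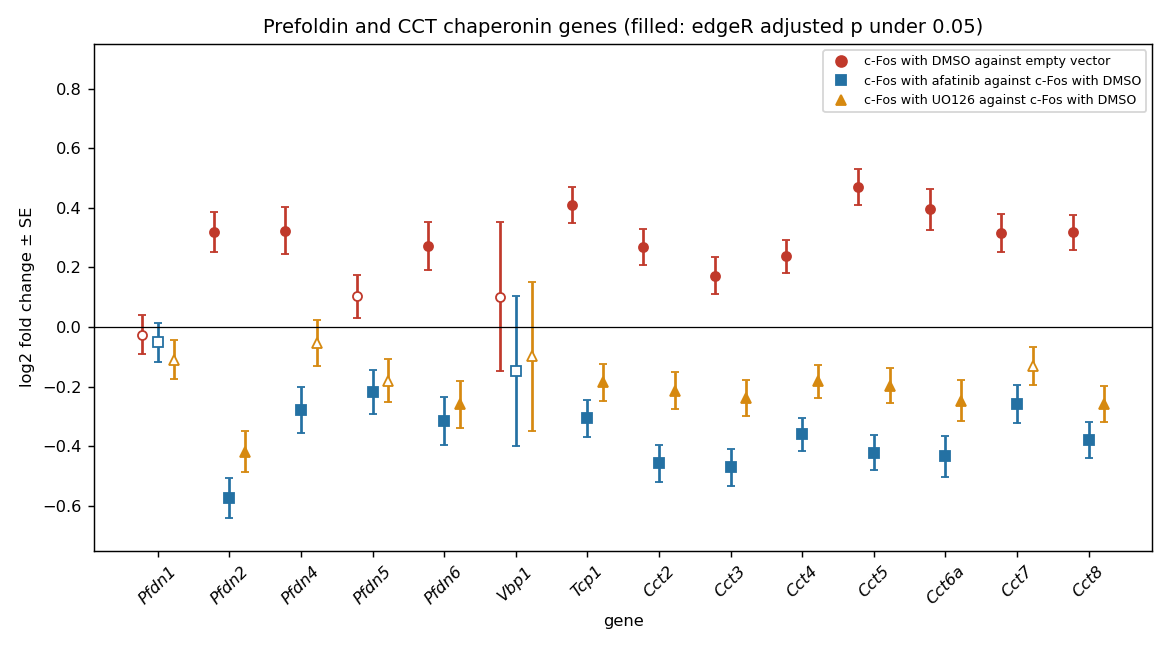
Log2 fold change with its standard error for the 14 prefoldin and CCT genes in 3 comparisons that share the DMSO libraries, filled where the edgeR adjusted p was under 0.05. Of the c-FOS values 11 are filled and above 0, while 12 afatinib values and 9 UO126 values are filled and below 0. Of all genes tested, 21.5% rose with c-FOS, 21.5% fell with afatinib and 14.7% fell with UO126.

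The other lists of the tubulin pathway are read against the share of all genes called in the same comparison, 42.2% with c-FOS against the empty vector, 42.7% with afatinib and 28.6% with UO126 against DMSO. Of 7 cofactors that assemble the alpha-beta dimer after CCT, 2 rose with c-FOS (Tbce and Tbcd, by 0.32 ± 0.078 and 0.17 ± 0.060) and 1 fell (Arl2, -0.33 ± 0.089), a number near that share, with a median log2 fold change of 0.09 beside -0.01 for all genes. Tbcel, which takes tubulin dimers apart, was the 1 cofactor called with afatinib (0.47 ± 0.074, edgeR adjusted p = 2.2e-04) and with UO126 (0.27 ± 0.075, 0.015), higher than with DMSO in both. Of the 5 listed genes of the degradation of tubulin mRNA, 1 passed with c-FOS (Scaper, -0.31 ± 0.104, edgeR adjusted p = 0.027), and none was called between either inhibitor and DMSO.

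The rarer tubulins were low or absent. Tubb1, the platelet isotype, had no count in any library, and Tuba3a, Tuba3b, Tuba8, Tubal3 and Tubb4a had at most 5 counts in any library. The other 4 listed genes passed the filter. Tubd1, delta-tubulin of centrioles, fell with c-FOS (-0.55 ± 0.093, edgeR adjusted p = 3.5e-04) and was higher than with DMSO under afatinib (0.37 ± 0.094, 0.0057) and under UO126 (0.48 ± 0.093, 0.0017). Tubg1, the gamma-tubulin that starts microtubules, was lower with afatinib than with DMSO (-0.21 ± 0.078, 0.044), and Tubg2 fell with c-FOS (-0.36 ± 0.129, 0.039). Of the 18 genes of the gamma-tubulin ring and of nucleation, 3 rose and 1 fell with c-FOS, none rose and 4 fell with afatinib, and 1 rose and 1 fell with UO126. These numbers are under the shares of all genes, and the medians were 0.00, -0.11 and -0.08, beside -0.01, -0.00 and 0.00 for all genes. Tubgcp2, a core subunit of that ring, rose with c-FOS (0.45 ± 0.080, edgeR adjusted p = 5.5e-04) and was lower with afatinib than with DMSO (-0.41 ± 0.080, 0.0011).

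Among enzymes that modify tubulin, more rose than fell under afatinib. Of the 22 listed, 15 were tested, with a median log2 fold change of 0.22 against DMSO, beside -0.00 for all genes. Of these 15, 8 rose and 1 fell, where 21.2% and 21.5% of all genes did. They included Ttll1, which adds glutamate chains to tubulin (0.57 ± 0.084, edgeR adjusted p = 1.2e-04), and Vash2, which removes the last residue of alpha-tubulin, from 3.22 ± 0.374 to 5.49 ± 0.333 CPM (0.77 ± 0.165, 0.0020). With c-FOS 5 of the 15 rose and 2 fell, near the 42.2% of all genes called there, with a median of 0.02 beside -0.01. Those that rose included Agtpbp1, which trims glutamate chains (0.59 ± 0.090, edgeR adjusted p = 1.7e-04). Vash2 rose as well, from 1.35 ± 0.0525 to 3.22 ± 0.374 CPM (1.25 ± 0.209, edgeR adjusted p = 3.2e-04). These levels are under the 5 CPM asked of named genes, and are given beside its afatinib values. With UO126 3 rose and 1 fell, near the 28.6% of all genes called there, with a median of 0.13 beside 0.00. Of 26 tested among 30 listed microtubule-associated proteins and severing enzymes, 4 rose and 4 fell with c-FOS, 9 rose and 2 fell with afatinib, and 6 rose and 4 fell with UO126. The number called in either direction was under the share of all genes with c-FOS, near it with afatinib and somewhat above it with UO126. With afatinib the directions were unequal: 9 of the 26 rose and 2 fell, where 21.2% and 21.5% of all genes did. The medians were 0.06, 0.15 and 0.09 beside -0.01, -0.00 and 0.00 for all genes. Map1b and Map7d1, which bind along microtubules, rose with c-FOS (0.83 ± 0.090 and 0.64 ± 0.061). Fignl1 and Map6 were lower with afatinib than with DMSO (-0.66 ± 0.077 and -0.59 ± 0.074), and Mapre3, which tracks growing microtubule ends, was higher (0.54 ± 0.074).

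Dividing cells build their spindle from tubulin, and the level of genes of the G2/M phases is given beside these results; its part in them was not tested. The 12 listed genes summed to 3628 and 3756 CPM in the empty-vector libraries at their lowest and highest, 3451 and 3497 under DMSO, 3675 and 3823 under afatinib and 3594 and 3780.2 under UO126. Their lowest sums were those of the DMSO libraries, in which Tuba1b, Tuba1c, Tuba4a, Tubb4b, Tubb5 and Tubb6 were highest. With c-FOS 1 of the 12 rose and 2 fell, with afatinib 2 rose and 2 fell, and with UO126 2 rose and none fell, under the 42.2%, 42.7% and 28.6% of all genes called there.

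Over the 8 libraries the tubulin genes fell into patterns of unequal likeness, described here by Pearson's r of log2 CPM, with no test, since the 8 points are 4 groups of 2. Tubb3 ran with Tubb2a (r = 0.997) and Tubb2b (0.975), and Tubb5 with Tubb4b (0.982) and Tuba1b (0.961). Between these sets r was -0.16 for Tubb3 and Tubb5. Tubb3, the beta gene with the widest range of group means (3.66 on the log2 scale), was most like Ehd1 (r = 0.997), Hfe (0.994) and Klf10 (0.994) among all other genes tested. Ehd1 averaged 192, 361, 328 and 378 CPM for empty vector, DMSO, afatinib and UO126. Tuba1b, the alpha gene with the widest range (0.80), was most like Elac2 (r = 0.992), B4galnt4 (0.987) and Mybbp1a (0.983), the last averaging 595, 806, 414 and 617 CPM in the same order.

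The stretches before the start sites were searched for known promoter letters. RefSeq promoter windows of build GRCm38.p6 were at hand for 8 of the 10 members, all but Tubb2b and Tubb6. The 250 bases before each RefSeq start were searched on both strands. RefSeq and GENCODE place some starts apart. The window of Tuba4a lies wholly after the GENCODE gene start, and those of Tuba1a, Tuba1b and Tubb3 lie after it in part. That of Tubb5 passes it by a few bases. Such stretches may be transcribed. The letters searched were TGANTCA, to which AP-1 binds, TGACGTCA, called CRE and bound by CREB and ATF factors, CCAAT, and TATAAA, none of which overlap each other in these windows. Of 32851 windows of that length, 6.75% hold TGANTCA, 1.55% TGACGTCA, 33.8% CCAAT and 12.4% TATAAA. None of the 8 member windows holds TGANTCA, which says only that these letters are not in these windows. Those of Tuba1a, Tuba1c, Tubb3, Tubb4b and Tubb5 hold CCAAT, which in Tuba1a and Tubb3 lies after the GENCODE gene start. The letters did not follow the patterns above: Tubb3 holds CCAAT as Tubb5 does and lacks the TGACGTCA of Tubb2a, and Tuba1b holds none of the letters. The windows of Tubb2a and Tubb5 are printed as examples of different letters, with those found in capitals.
Tubb2a, chr13:34078009-34078258, minus strand: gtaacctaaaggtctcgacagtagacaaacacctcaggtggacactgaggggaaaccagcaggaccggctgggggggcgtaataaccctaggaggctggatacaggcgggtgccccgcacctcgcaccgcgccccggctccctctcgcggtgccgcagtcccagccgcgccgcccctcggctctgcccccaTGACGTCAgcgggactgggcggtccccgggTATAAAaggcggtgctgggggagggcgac
Tubb5, chr17:35838302-35838551, minus strand: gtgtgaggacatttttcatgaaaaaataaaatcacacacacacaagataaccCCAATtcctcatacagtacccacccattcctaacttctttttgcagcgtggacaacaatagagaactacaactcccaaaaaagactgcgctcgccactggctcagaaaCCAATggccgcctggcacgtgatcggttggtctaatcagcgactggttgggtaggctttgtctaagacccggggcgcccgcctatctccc
Tubb2a holds TGACGTCA from 59 and TATAAA from 29 bases before its start, and is the 1 member window with either. Tubb5 holds CCAAT from 198 and from 90 bases before its start.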

How the data were processed

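Per the series design text, Illumina reads were aligned with TopHat and counted per transcript isoform with HOMER. The submitters' processing notes also name DESeq2 and mm9, with no role or version. The authors deposited expected counts, 1 entry per gene symbol, all multiples of 0.5, and a length per entry in bases, a column of another unit. The sources used here do not state how reads that match several genes were counted. Of 24909 entries, 26 with symbols turned into dates were left out.

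After rounding, edgeR 4.0.16 under R 4.3.3 ran its robust quasi-likelihood test, two-sided and with trimmed-mean scaling, in 1 fit of 8 libraries and 4 group coefficients, which leaves 4 residual degrees of freedom. The filter kept genes by a minimum count of 10 and total of 15. In each of 6 comparisons Benjamini-Hochberg adjustment covered 12879 genes, called under 0.05. The common biological coefficient of variation was 0.0596. Standard errors come from the F statistic. Replicate pairs differed by more than sampling noise (chi-square per degree of freedom 4.95 to 25.9). The fit was tested on simulated data, where false calls were above the nominal rate. Alternatives (19) included DESeq2 1.42.0 and leaving out each library. All 10 members are named, and from each pathway list and comparison at most 3 called genes with the largest change at 5 CPM or more in the higher group. Vash2 with c-FOS is given though it lay below that level. Members and lists were chosen with earlier results of these data known.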

Additional observations from a re-analysis of the deposited data

How the results depend on the processing

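Counts of called tubulin genes were recomputed under 19 alternatives. Asking for a change of at least 1.5-fold as well left 5 higher with c-FOS against the empty vector, 6 lower with afatinib against DMSO, 0 higher and 0 lower with UO126 against DMSO, 3 lower with afatinib against UO126, 1 lower with afatinib against the empty vector, and 4 higher and 0 lower with UO126 against the empty vector. Under that rule 15.7%, 13.8%, 7.18%, 2.48%, 17.4% and 14.4% of all genes were called in either direction, in the same order of comparisons. Summing close copies, which leaves 7 features, gave 1 higher and 3 lower with UO126 against DMSO, where 28.5% of all features tested were called. The 1 gene lower with UO126 against the empty vector became 0 with the 4 libraries compared alone and at an adjusted p under 0.01. Of all genes, 32.6% and 25.3% were called there in either direction. Leaving out 1 library at a time gave 3 to 6 lower with UO126 against DMSO and 0 to 1 lower with UO126 against the empty vector. The sign reversed for 1 uncalled value, Tubb4b with UO126 against the empty vector, which ranged from -0.045 to 0.043 with 1 library left out and was 0.028 without empty vector replicate 2, 0.0055 without DMSO replicate 1 and 0.043 without UO126 replicate 1. For single genes, 1038 of the values stayed on the same side, 65 lost their call, 4 gained one and 3 reversed.

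Same-numbered libraries did not deviate together (correlations -0.21 to 0.12). The labels do not say whether the numbers pair the samples, and 1 difference per group cannot settle it. The replicate block gave 8 members higher with c-FOS, 10 lower with afatinib, 2 higher and 5 lower with UO126 against DMSO, 9 lower with afatinib against UO126, 4 higher and 5 lower with afatinib and 6 higher and 1 lower with UO126 against the empty vector. It called 39.1%, 39.3%, 25.1%, 11.0%, 41.8% and 34.4% of all genes in that order of comparisons. The 1 member call it ended was Tuba4a with UO126 against the empty vector (adjusted p = 0.056). With 2 libraries per group, small differences were near the limit of detection.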

Other observations

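An entry for a pseudogene, Tubb2a-ps2, was also counted. It had 76 and 77 counts in the empty-vector libraries, 154 and 144 under DMSO, 134.5 and 154 under afatinib and 266 and 234 under UO126. It was higher with c-FOS than with the empty vector (log2 fold change 1.24 ± 0.141, SE, edgeR adjusted p = 1.2e-05) and higher with UO126 than with DMSO (0.45 ± 0.119, 0.012), and did not pass between afatinib and DMSO (-0.29 ± 0.128, 0.089). Whether its counts came from reads of Tubb2a or Tubb2b was not tested.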
